A study of Rattus norvegicus with 24 samples.

Results

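Nppa and Nppb encode the precursors of atrial natriuretic peptide (ANP) and B-type natriuretic peptide (BNP), the hormones that heart muscle cells release when they are stretched. The peptides bind a receptor guanylyl cyclase, raise cyclic GMP in kidney and vessels, and so promote sodium loss and vasodilation. In the adult heart Nppa RNA is made mainly in the atria, and ventricular muscle makes more of both RNAs under mechanical or hormonal load, which is why they serve as markers of ventricular load. Both genes were chosen by their Ensembl identifiers, ENSRNOG00000008176 for Nppa and ENSRNOG00000008141 for Nppb, and are 2 of the 23098 gene identifiers in the count table. Both passed the filter on low counts and are among the 15065 genes tested.

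RNA was sequenced from the left ventricular free wall of male Wistar rats in 24 libraries, 6 in each of 4 groups. The sham group (SHAM) had the dura opened at high thoracic level with the cord left intact, and its tissue was taken 7 days after surgery. The other groups had a complete transection of the high thoracic cord (spinal cord injury, SCI) and were sampled 1 day, 3 days or 12 weeks after surgery. Transection at this level cuts the descending control of the sympathetic nerves to the heart. Every group had surgery, no drug or transgene is named in the labels, the rats' age is not stated, and no injured group has a sham group of its own time. No label states that each library came from a separate rat, so the p-values measure the spread between these libraries, part of which may be technical.

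Sham libraries held 27097306 to 70340174 counts. The range was 41326217 to 62308617 for the 1 day group, 16756399 to 48966088 for the 3 day group and 15002476 to 44709028 for the 12 week group. Levels are given as CPM, counts scaled to a common library size. The lowest count of either gene was 34, for Nppb in 12 week replicate 1. The labels number the sham and 3 day libraries 57 to 68 and the 1 day and 12 week libraries 77 to 88, so 3 days against sham and 12 weeks against 1 day are comparisons within 1 run of numbers. In the others the run and the group cannot be told apart. 12 week replicate 3 stood apart from its group in the CPM of both genes and had the lowest sample quality weight of all libraries, 0.264, in the limma-voom fit. The results of the 12 week group that moved most on leaving it out are therefore given with and without it. The library was picked partly by the values of these same genes, so p-values without it are descriptive and do not stand as tests. The count table pairs identifiers with no names, so markers of left ventricle, atrium and other cell types, the receptors and processing enzymes of the pathway, and other load-responsive genes were not read. In bulk tissue, fewer cells of a type and less RNA per cell cannot be told apart.

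The 2 genes are immediate neighbours among the protein-coding genes on rat chromosome 5, on the same strand, with Plod1 among the nearest genes beyond Nppb and Clcn6 next to Nppa. Their upstream sequences are shown because they are the stretches through which factors of heart muscle, such as GATA4, NKX2-5 and TEAD1, are known to act on these genes. They were taken from RefSeq by symbol (both matched) on build GRCr8, plus strand, while the counts were made on mRatBN7.2. The Nppa stretch is chr5:163711934-163712183, and the Nppb stretch is chr5:163699758-163699954. Each begins 250 bases before the annotated start used for the window and ends before the first start of the gene. Capitals mark matches on either strand to the motifs named below.
Nppa: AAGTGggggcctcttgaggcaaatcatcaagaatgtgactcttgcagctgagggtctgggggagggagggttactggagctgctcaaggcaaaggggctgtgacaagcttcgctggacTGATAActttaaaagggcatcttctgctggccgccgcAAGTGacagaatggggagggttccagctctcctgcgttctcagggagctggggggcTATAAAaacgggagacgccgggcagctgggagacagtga
Nppb: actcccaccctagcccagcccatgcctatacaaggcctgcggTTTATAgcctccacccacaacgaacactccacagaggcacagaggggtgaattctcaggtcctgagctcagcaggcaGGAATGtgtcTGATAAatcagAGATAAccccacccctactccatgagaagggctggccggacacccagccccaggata

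The window searched was 300 bases long, from 250 before to 50 after the annotated start, and the same window of 33469 rat genes gave the background. Positions count from that start, which for Nppb lies past the gene's first start. The printed stretch ends 54 bases before it in Nppb and 1 base before it in Nppa. Equal positions in the 2 genes are therefore not equal distances from the first start. The GATA-type motif TGATAA lay at -132 to -127 in Nppa and at -121 to -116 in Nppb, and 9.03% of all windows hold it. A second GATA-type motif, AGATAA, lay at -110 to -105 in Nppb alone of the pair, against 11.6% of windows. The TEAD-type M-CAT motif CATTCC was found in Nppb, on the minus strand at -131 to -126, where 14.2% of windows hold it. The NK2-type motif AAGTG, held by 46.2% of windows, matched Nppa at -250 to -246 and -95 to -91 and Nppb on the minus strand at 46 to 50, past the printed stretch. The TATA-type motif TATAAA, in 14.2% of windows, lay at -39 to -34 in Nppa, and in Nppb on the minus strand at -208 to -203. The AP-1-type motif TGANTCA (7.33% of windows) and the CArG box (1.64%) matched neither window. These are matches of letters. No binding was measured.

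Nppa RNA was lowest 12 weeks after transection. In sham it stood at 56.7, 48.0, 31.6, 109, 175 and 36.4 CPM in replicates 1 to 6, so that replicates 4 and 5 were well above the rest. At 1 day the libraries fell apart into high and low values, with 155, 137, 118 and 74.7 CPM in replicates 1, 3, 5 and 6 and 17.3 and 21.0 CPM in replicates 2 and 4. The low pair lay below every sham library, while the other libraries at 1 day lay within the sham range. At 3 days the levels were 60.4, 21.0, 53.9, 37.2, 53.6 and 60.8 CPM, the narrowest of the 4 groups. Replicate 2 was the one library at 3 days below the sham range. At 12 weeks they were 13.0, 15.8, 67.3, 12.2, 25.6 and 14.5 CPM. Replicate 3 sat inside the sham range, and the other 5 libraries were below every sham library.

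**Figure D1:**
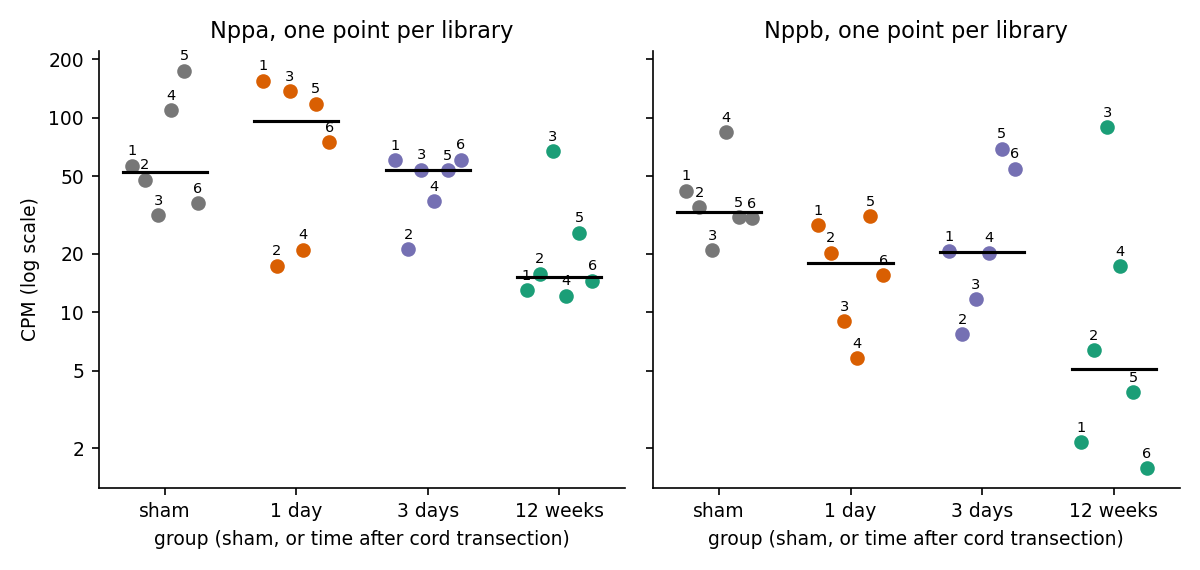
Levels of Nppa (left) and Nppb (right) in CPM on a log axis, 1 point per library with its replicate number, and the group median as a line. At 12 weeks 5 of 6 libraries lie below every sham library in both genes, and replicate 3 lies at 67.3 CPM for Nppa and 89.4 CPM for Nppb.

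As group means, Nppa stood at 87.2 ± 59.1 CPM at 1 day (SD, n = 6), 76.1 ± 55.8 CPM in sham, 47.8 ± 15.7 CPM at 3 days and 24.7 ± 21.4 CPM at 12 weeks. Without 12 week replicate 3 the 12 week mean was 16.2 ± 5.44 CPM (SD, n = 5). No neighbours in this order were called different by edgeR with all libraries. The difference of 12 weeks from sham was called by edgeR's quasi-likelihood test, with a log2 fold change of -1.62 (SE 0.529, 95% interval -2.71 to -0.53, adjusted p = 0.0299), a level 3.07-fold lower. Nppa was thus the 1 of the 2 natriuretic peptide genes called at 12 weeks, in a comparison that called 22.1% of all tested genes and 10.9% as lower. Only 1.27% of tested genes had a difference of this size or larger in either direction, and the median absolute log2 difference of all genes was 0.18. The call was lost on leaving out any 1 of sham replicates 4 and 5 or 12 week replicates 1, 2, 4 and 6. Of these, leaving out sham replicate 5 gave the smallest fall, -1.18 with an edgeR adjusted p of 0.11. Leaving out 12 week replicate 3 gave -2.22 (edgeR adjusted p = 0.00341). An exact permutation test of mean log2 CPM gave a difference of -1.65 (two-sided p = 0.0152, adjusted over the 6 contrasts of the gene p = 0.0736). The time since surgery differed between these groups along with the injury, and the effects cannot be told apart. Library totals also differed in range, 15002476 to 44709028 counts at 12 weeks against 27097306 to 70340174 in sham, and the part of depth in the difference was not tested.

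Nppa was also lower at 12 weeks than at 1 day, within the same run of library numbers. The log2 fold change was -1.82 (SE 0.531, 95% interval -2.91 to -0.72, edgeR adjusted p = 0.0104), a level 3.52-fold lower, and 16.1% of genes were called lower in this comparison (33.9% in either direction). It kept its call without any 1 library, with log2 fold changes of -2.42 to -1.57. The exact permutation test gave p = 0.0325, or 0.0736 adjusted over the 6 contrasts. 4 of the 6 libraries at 12 weeks lay below every library at 1 day, and the others overlapped. Library totals differed here too, 15002476 to 44709028 counts at 12 weeks against 41326217 to 62308617 at 1 day. The part of depth in this difference was not tested. Against 3 days the log2 fold change was -0.95 (95% interval -2.03 to 0.14, edgeR adjusted p = 0.177). That comparison called 31.3% of tested genes and neither of the 2 natriuretic peptide genes, whether by edgeR (0 of 2 also at an unadjusted p under 0.05) or by DESeq2, while limma-voom called 1, Nppb. Without 12 week replicate 3 the Nppa difference from 3 days was -1.55 (edgeR adjusted p = 0.0252).

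No change of Nppa was called in the first days after transection. At 1 day the log2 fold change against sham was 0.20 (SE 0.509), with a 95% interval of -0.85 to 1.25 that spans a lower as well as a higher level (edgeR adjusted p = 0.813). Its sign turned without 1 day replicate 1 (-0.04). At 3 days it was -0.67 (SE 0.515, 95% interval -1.73 to 0.39, edgeR adjusted p = 0.405), a comparison within 1 run of library numbers, and -0.23 without sham replicate 5. Between 3 days and 1 day it was -0.87 (95% interval -1.93 to 0.19, edgeR adjusted p = 0.40).

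Nppb RNA was low in most libraries at 12 weeks and very high in 1 of them. In sham it stood at 42.1, 34.7, 20.9, 84.5, 30.7 and 30.4 CPM in replicates 1 to 6, with replicate 4 high as it was for Nppa. At 1 day the levels were 28.0, 20.2, 8.98, 5.82, 31.2 and 15.5 CPM, and 4 of the 6 libraries were below every sham library. Replicate 3 at 1 day was low for Nppb but high for Nppa. At 3 days the levels were 20.6, 7.72, 11.7, 20.3, 69.2 and 54.8 CPM, so that replicates 1 to 4 lay below the sham range, replicates 1 and 4 only just, and replicates 5 and 6 within it. At 12 weeks they were 2.15, 6.39, 89.4, 17.2, 3.89 and 1.58 CPM. Replicate 3 was above every sham library and the other 5 were below all of them, which makes the highest library 56.4-fold above the lowest, or 10.9-fold without replicate 3.

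By group mean the order for Nppb was sham with 40.5 ± 22.6 CPM (SD, n = 6), 3 days with 30.7 ± 25.2 CPM, 12 weeks with 20.1 ± 34.4 CPM and 1 day with 18.3 ± 10.1 CPM. By median it was sham (32.7 CPM), 3 days (20.4), 1 day (17.8) and 12 weeks (5.14). None of the differences between groups was called by edgeR with all libraries and all groups in the fit. At 12 weeks against sham the log2 fold change was -1.01 (SE 0.717, 95% interval -2.48 to 0.47, edgeR adjusted p = 0.336). Without 12 week replicate 3 it was -2.68 (edgeR adjusted p = 0.00294), and without sham replicate 4 it was -0.66 (edgeR adjusted p = 0.581). limma-voom, which fits log values and weights 12 week replicate 3 down, gave -3.09 with all libraries (adjusted p = 0.00265). With that library left out, the other 5 libraries averaged 6.25 ± 6.42 CPM (SD, n = 5). The exact permutation test of log2 CPM, with all libraries and no weights, gave a difference of -2.35 (p = 0.0368, adjusted over the 6 contrasts p = 0.11).

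**Figure D2:**
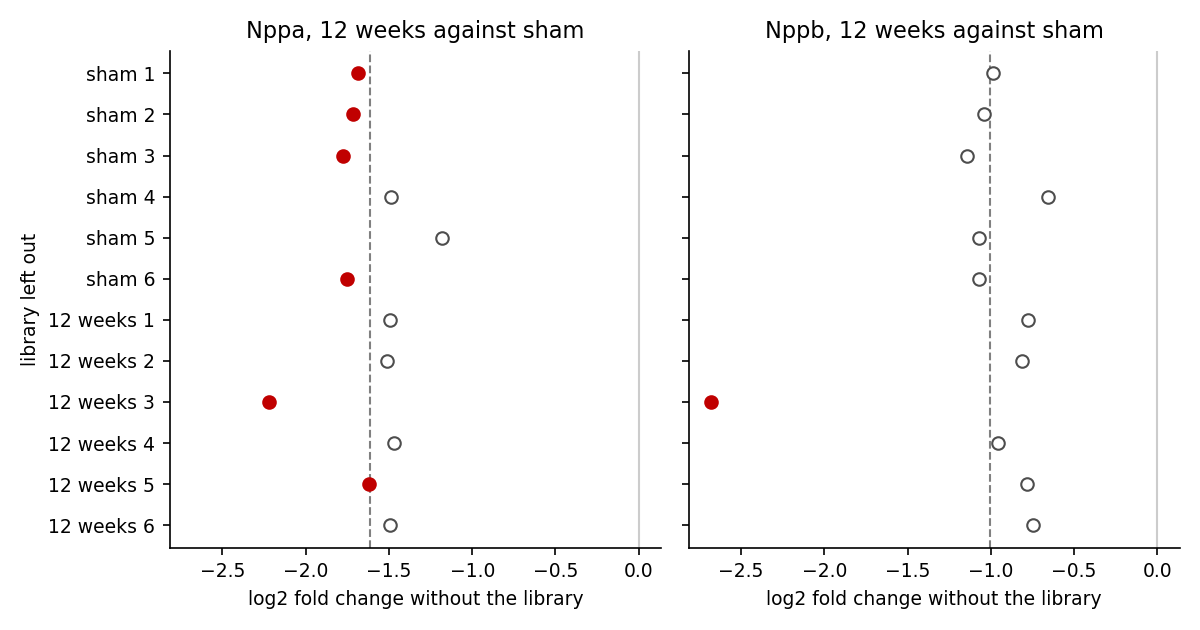
Log2 fold change of 12 weeks against sham for Nppa (left) and Nppb (right) when each sham or 12 week library is left out, from edgeR. Filled points have an adjusted p under 0.05, the dashed line is the value with all libraries, and Nppb is called only without 12 week replicate 3, at -2.68.

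At 1 day Nppb had a log2 fold change of -1.15 against sham (SE 0.713, 95% interval -2.62 to 0.32, edgeR adjusted p = 0.255). edgeR called 0 of the 2 natriuretic peptide genes at 1 day (0 also at an unadjusted p under 0.05), as did DESeq2, where edgeR called 24% of all tested genes. limma-voom called Nppb (-1.27, adjusted p = 0.029), and so did edgeR fitted on the 2 groups alone (-1.14, adjusted p = 0.0342). These fits also called more genes in all, 5062 by limma-voom and 4829 with the 2 groups alone, against 3615 by edgeR with all groups. The exact permutation test gave p = 0.0173, or 0.104 adjusted over the 6 contrasts. At 3 days the log2 fold change was -0.42 (SE 0.709, 95% interval -1.88 to 1.04, edgeR adjusted p = 0.741), and between -0.82 (without 3 day replicate 5) and -0.07 (without sham replicate 4) when single libraries were left out. edgeR called 0 of the 2 genes at 3 days, 0 also at an unadjusted p under 0.05, as did DESeq2 and limma-voom, against 17.5% of all tested genes.

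edgeR called no difference in Nppb between the injured groups with all libraries. Between 3 days and 1 day the log2 fold change was 0.73 (95% interval -0.75 to 2.20, edgeR adjusted p = 0.659), in a comparison where 2.74% of tested genes were called and 0 of the 2 natriuretic peptide genes by edgeR (0 at an unadjusted p under 0.05), DESeq2 or limma-voom. It was 0.33 without 3 day replicate 5 and 0.25 by limma-voom. Between 12 weeks and 1 day it was 0.14 (95% interval -1.33 to 1.61, edgeR adjusted p = 0.90), and -1.54 without 12 week replicate 3 (adjusted p = 0.0542). Between 12 weeks and 3 days it was -0.59 (95% interval -2.07 to 0.89, edgeR adjusted p = 0.569). That difference was -2.26 without 12 week replicate 3 (edgeR adjusted p = 0.00743) and -2.07 by limma-voom (adjusted p = 0.0436).

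**Figure D3:**
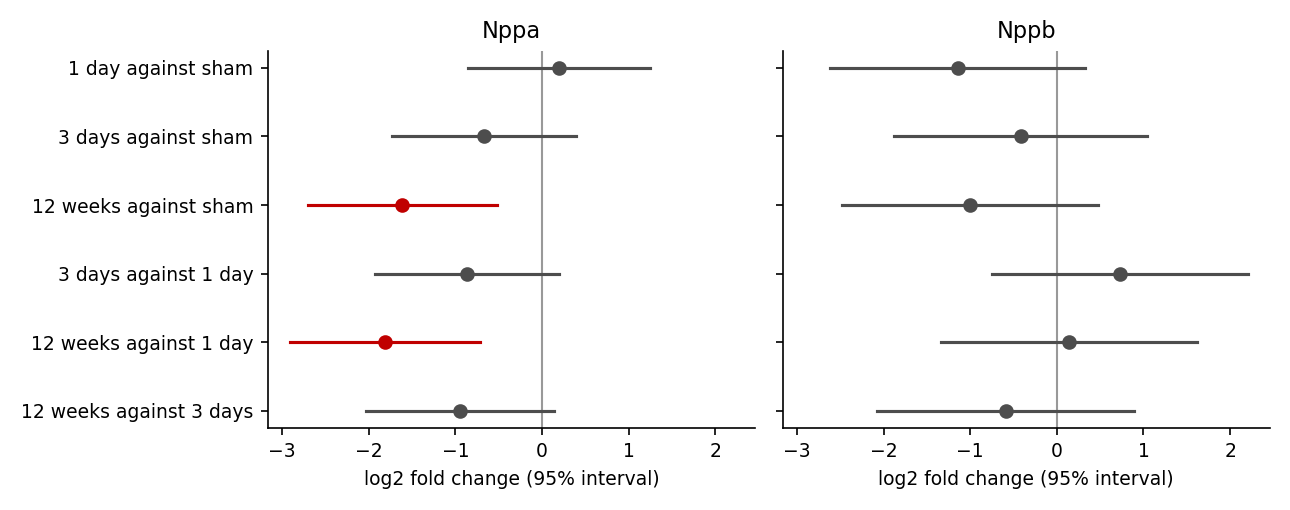
Log2 fold changes of Nppa (left) and Nppb (right) in the 6 comparisons of groups, with 95% intervals from edgeR. Red marks an adjusted p under 0.05, reached by Nppa at 12 weeks against sham (-1.62) and against 1 day (-1.82), and every interval of Nppb spans 0.

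Both genes varied more between libraries of a group than most genes did. The biological coefficient of variation, edgeR's estimate of the spread between replicates beyond counting error, was 0.598 for Nppa and 0.828 for Nppb, against a median of 0.138 over the tested genes. Only 1.44% of genes reached the value of Nppa and 0.345% that of Nppb. The spread differed by gene and time. The SD of log2 CPM of Nppa was 0.96 in sham, 1.40 at 1 day, 0.60 at 3 days and 0.94 at 12 weeks. For Nppb it was 0.68, 0.95, 1.23 and 2.15 in the same order. Without replicate 3 the 12 week SDs were 0.42 for Nppa and 1.35 for Nppb (n = 5). At 12 weeks 0.0465% of tested genes varied as much as Nppb, or 0.883% without replicate 3, and 4.73% as much as Nppa, or 20.2% without it. At 1 day 0.372% varied as much as Nppa. The differences in spread between groups were not tested.

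The 2 genes followed each other in part. With the group means subtracted, their log2 CPM correlated over the 24 libraries with Pearson r = 0.50 (permutation p = 0.0122) and Spearman rho = 0.42 (permutation p = 0.0404). Where group means were subtracted, values were shuffled over all libraries of the set, not within groups. No allowance was made for the subtracted means or the unequal spread of the groups, so these p-values may be too small. The r was 0.50 within each run of library numbers (n = 12 each, permutation p = 0.0951 for 57 to 68 and 0.0966 for 77 to 88). Without the 2 libraries farthest from the median of Nppa, 1 day replicate 2 and 12 week replicate 3, it was 0.46 (permutation p = 0.0322). The group means subtracted there still included these libraries. Without 12 week replicate 3 alone, and with the group means taken anew, r was 0.33 (permutation p = 0.127), so the relation rests in part on that library. The values 0.46 and 0.33 are therefore not like measures. Within single groups of 6 it was 0.50 in sham, 0.40 at 1 day, 0.65 at 3 days and 0.72 at 12 weeks, with exact permutation p-values of 0.318, 0.414, 0.153 and 0.1, and adjusted over these 4 tests 0.414, 0.414, 0.306 and 0.306. The 12 week value rests on replicate 3: over the other 5 libraries, a small set, r was -0.17 (exact permutation p = 0.767). The rank correlations in these groups were 0.66, 0.31, 0.54 and 0.31, each with an adjusted exact permutation p of 0.564.

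**Figure D4:**
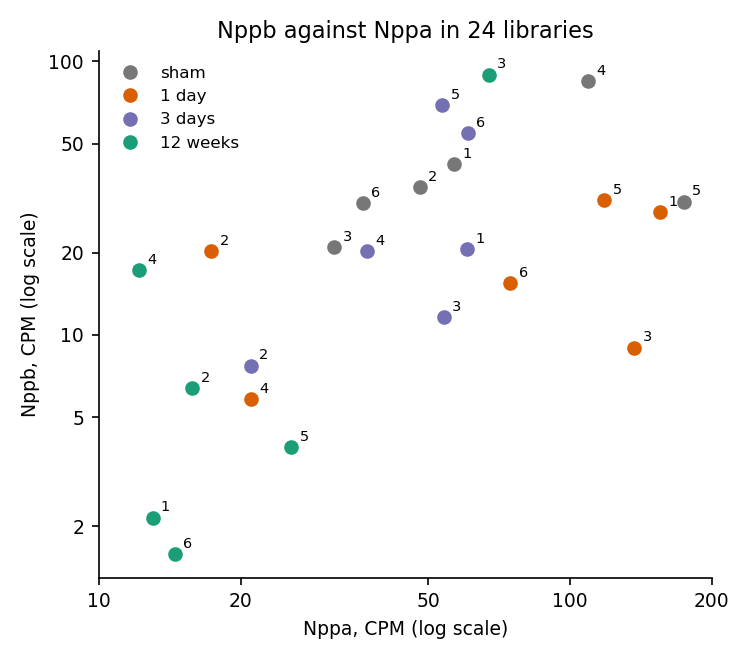
Nppb against Nppa in CPM on log axes, 1 point per library with its replicate number, coloured by group. 12 week replicate 3 (67.3 CPM Nppa, 89.4 CPM Nppb) lies among the highest libraries for Nppb, and the other 12 week libraries lie between 12.2 and 25.6 CPM of Nppa.

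The ratio of Nppa to Nppb counts within a library does not depend on how libraries are scaled. In sham it lay close together, at 1.35, 1.39, 1.51, 1.30 and 1.20 in replicates 1, 2, 3, 4 and 6, with 5.68 in replicate 5. The high Nppa of sham replicate 5 thus had no match in Nppb, while that of replicate 4 did. After transection the ratio ran from 0.857 to 15.2 at 1 day, from 0.774 to 4.63 at 3 days and from 0.706 to 9.17 at 12 weeks. The medians were 1.37 in sham, 4.31 at 1 day, 2.28 at 3 days and 4.27 at 12 weeks.

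On the log2 scale the mean ratio was 0.77 ± 0.86 in sham (SD, n = 6). In the 1 day group it was 2.04 ± 1.34, in the 3 day group 0.98 ± 0.96 and in the 12 week group 1.49 ± 1.63. The largest difference, 1 day against sham, was 1.26 (two-sided exact permutation p = 0.0693, adjusted over 6 comparisons p = 0.416). The others had exact permutation p-values from 0.141 to 0.688, with a smallest p of 0.00216 possible in this design, so no difference in the ratio was called. At 12 weeks the low libraries were not low in the same proportion. The ratio was 6.06, 6.59 and 9.17 in replicates 1, 5 and 6, 2.47 in replicate 2 and 0.706 in replicate 4.

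**Figure D5:**
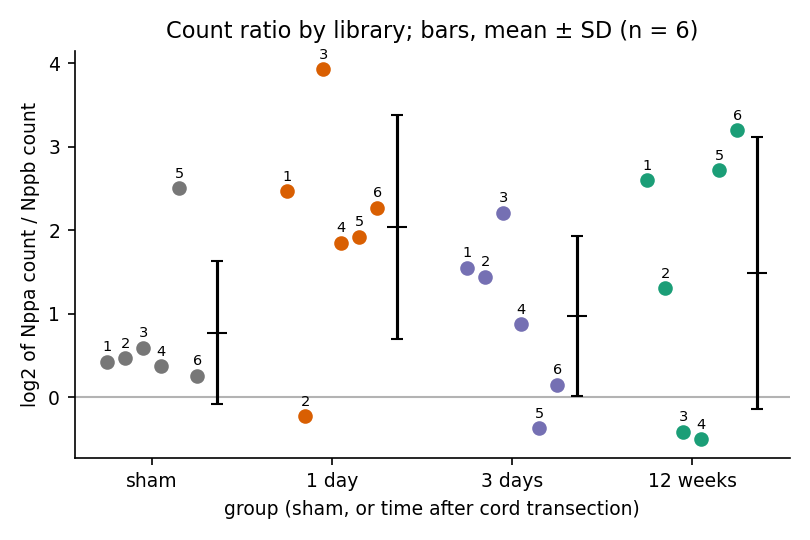
Log2 ratio of Nppa to Nppb counts in each library, numbered by replicate, with the group mean and SD beside the points. Sham libraries run from 0.26 to 2.51, with only replicate 5 apart from the rest, and the injured groups run from below 0 to 3.93 at 1 day. The SD was 0.86 in sham, 1.34 at 1 day, 0.96 at 3 days and 1.63 at 12 weeks. Differences in spread were not tested.

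Likeness to other genes was measured as Pearson's r of log2 CPM over the 24 libraries, group differences included, among 11513 genes with a mean log2 CPM of at least 1. Nppb ranked 35th in likeness to Nppa (r = 0.61), and Nppa ranked 205th in likeness to Nppb. With the group means subtracted the ranks were 113 and 1017, and without 12 week replicate 3, group differences included, 113 and 406 of 11523 genes. With the group means subtracted and that library left out, the ranks were 712 and 1575 (r = 0.33). The gene most like Nppa was ENSRNOG00000017786 (r = 0.79), which the table gives no name. It stood at 401 ± 244 CPM in sham (SD, n = 6), 567 ± 285 CPM at 1 day, 627 ± 352 CPM at 3 days and 144 ± 109 CPM at 12 weeks. Its log2 fold change at 12 weeks against sham was -1.48 (edgeR adjusted p = 0.0207). The gene most like Nppb was ENSRNOG00000014997 (r = 0.85), also without a name. A different gene ranked first for Nppb when the group means were subtracted (r = 0.93) or 12 week replicate 3 was left out (r = 0.86). With both changes together a different gene ranked first for Nppa as well (r = 0.81). ENSRNOG00000014997 moved far less, from 296 ± 18.6 CPM in sham to 235 ± 39.9 CPM at 12 weeks (log2 fold change -0.33, edgeR adjusted p = 0.00656). These genes were picked as the highest of many and share the libraries with Nppa and Nppb, so their r is a description.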

How the data were processed

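The authors deposited raw counts per gene for 24 libraries of rat left ventricle as 1 table, named in the labels as protein-coding. The submitters' processing notes name STAR 2.7.11a, featureCounts 2.0.6, FastQC 0.12.1 and build mRatBN7.2, with annotation release and strand setting not given in the sources used here. The table's 26166 lines hold 23098 identifiers, repeated lines were identical, and each identifier was used once. None (0) matched the symbol table, so the planned pathway, regulator, load and cell type lists were not run. Nppa and Nppb were identified by the rule that chose them.

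Counts were fitted in R 4.3.3 with edgeR 4.0.16: filterByExpr by group (15065 genes), TMM scaling, 1 model over 24 libraries with 4 group terms (20 residual degrees of freedom), quasi-likelihood F tests and Benjamini-Hochberg adjustment over all tested genes, with a threshold of 0.05. Each standard error was the absolute log2 fold change over the square root of F. log2 CPM used a prior count of 2. Alternatives were DESeq2 1.42.0, limma-voom (limma 3.58.1) with sample weights, other scalings, no filter, the 2 groups alone, a replicate block and leaving out each library. The fit was tested on simulated data. Over the 60 replicate pairs, chi-square per degree of freedom was 12.6 to 109 (genes with at least 10 counts), so no pair was 1 library deposited more than 1 time. The 2 genes are always named. Other named genes are the most alike by r. Members, lists and this rule were chosen with earlier results of these data known, and leaving 12 week replicate 3 out of the correlation, spread and likeness was chosen after seeing the data. In the comparisons of groups each library was left out in turn, and printing those without 12 week replicate 3 was also chosen after seeing the data.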

Additional observations from a re-analysis of the deposited data

Results flagged for a closer look

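At 12 weeks replicate 3 was far from its group in both genes, with 67.3 CPM of Nppa where the next library had 25.6 CPM, and 89.4 CPM of Nppb where the next had 17.2 CPM. In sham, replicate 4 was far above the others in Nppb, with 84.5 CPM against 42.1 CPM in the next library. Sham replicate 5 stood apart in the log2 ratio of Nppa to Nppb counts, at 2.51 against 0.60 in the next library. The gap to the nearest library, as a share of the group's range, was 0.756, 0.822, 0.667 and 0.85 in these cases, where 0.625 is Dixon's 95% value for 6 samples. For normally distributed values chance flags about 1 in 20 groups, and 12 groups of values were examined. The gene levels were examined in CPM, whose distribution was not checked, so that rate may not hold for them. On a log scale the gaps above the highest libraries would be a smaller share of the range, and those shares were not examined. Nppa differed directly between times after injury, with a log2 fold change of -1.82 at 12 weeks against 1 day (edgeR adjusted p = 0.0104). The part of single libraries' tissue or handling in these values was not tested.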

How the results depend on the processing

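Of the alternatives for Nppa, Nppb, their ratio and their correlation, 438 kept the direction and the side of the threshold. Of the rest, 9 lost a call, 7 gained one and 10 turned sign. For the 2 genes many of the 438 leave out a library of neither group compared, which could hardly move the estimate. An example is -1.62 for Nppa at 12 weeks against sham without 1 day replicate 1, so 438 is no measure of robustness. The fall of Nppa at 12 weeks against sham was -1.65 and missed the threshold by the exact permutation test, as did 12 weeks against 1 day (-1.68). limma-voom called Nppb at 1 day (-1.27) and 12 weeks (-3.09) against sham and at 12 weeks against 3 days (-2.07), and the 2 groups alone called Nppb at 1 day (-1.14). Over all genes limma-voom called 5062, 3917 and 4225 in its comparisons, in that order, against 3615, 3334 and 4718 by the main fit. The sign turned for Nppa at 1 day against sham with the replicate block (-0.056), limma-voom (-0.045) and without 1 day replicate 1 (-0.044). It turned for Nppb at 12 weeks against 1 day with the replicate block (-0.47), limma-voom (-1.82), the exact test (-1.12), and without 1 day replicate 3 (-0.0018), 1 day replicate 4 (-0.04) or 12 week replicate 3 (-1.54). The ratio at 3 days against sham was -0.041 without 3 day replicate 3. The causes were not tested.

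Leaving out 1 library gave log2 fold changes of -2.22 to -1.18 for Nppa at 12 weeks against sham, -1.55 to -0.81 against 3 days and -0.04 to 0.64 at 1 day against sham. For Nppb they were -2.68 to -0.66 at 12 weeks against sham, -2.26 to -0.19 against 3 days and -1.54 to 0.39 against 1 day, -0.82 to -0.07 at 3 days against sham and 0.33 to 0.95 at 3 days against 1 day, and for the ratio at 3 days against sham -0.04 to 0.55. The correlation of 0.50 was 0.33 without 12 week replicate 3. Replicate numbers are shared between groups, and no pairing by number was seen over all genes. Same-numbered libraries correlated at a median of -0.01 in their deviations from the group means (36 pairs, 4 above 0.1). For differently numbered libraries the median was 0.003 (180 pairs, 14 above 0.1). Such correlations cannot exclude a pairing that touches few genes. The replicate block changed no call of either gene. The count of genes called at 3 days against 1 day was 413, and 253 without TMM factors, 817 with DESeq2, 953 with limma-voom, 259 with the 2 groups alone and 170 to 653 without single libraries. Without TMM factors 34.8% of those calls were higher, against 45.0%. At this depth Nppa and Nppb each had at least 34 counts in every library.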
